A study of Mus musculus with 21 samples.

Results

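Transcripts of B cells and plasma cells were followed in the colon of germ-free (GF) male mice, in 9 genes chosen as markers of these cells. Cd79a, Cd79b, Ms4a1, Pax5, Cr2 and Fcer2a were taken as genes of B cells in lymphoid follicles, and Jchain, Mzb1 and Pou2af1 as genes of plasma cells. Every non-control probe carrying a member's name was collected (Jchain also under its older name Igj), which gave 14 probes on the day 0 arrays and 12 on the day 7 arrays, and the probe with the highest mean signal stood for its gene. These were 9 of 23751 named genes tested at day 0 and of 21096 at day 7. All 14 and 12 probes passed the detection filter.

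Total RNA of whole colon was hybridised to 1-colour Agilent arrays. At day 0, before dextran sulfate sodium (DSS) was given, 7 arrays were labelled GF Card9-/- and 6 GF WT, and after 7 days of 2% DSS in the drinking water 4 arrays carried each label. All mice were GF, male and C57BL/6J, the Card9-/- mice on this background, and the age of the mice on these arrays was not given in the sources used here. DSS damages the colon epithelium, and Card9 encodes an adaptor of innate immune receptors in myeloid cells. The comparison asked whether the label went with a different amount of B-lineage transcripts, before and during colitis. Each array is named here by its label and replicate number, so that Card9-/- 6 is the array labelled GF Card9-/-, replicate 6. The labels did not say whether Card9-/- 2 and Card9-/- 2.1 at day 7 came from separate mice, and p-values measure only the spread between arrays.

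The targeted gene went against the labels. The brightest Card9 probe read 8.71 to 9.24 on the log2 scale at day 0 in the 7 arrays labelled GF Card9-/-, and 2.30 to 2.33, well above background on 0 arrays, in the 6 labelled GF WT. At day 7 it read 7.93 to 8.57 in the arrays labelled GF Card9-/-, 7.85 in WT 1 and 2.38 to 2.41 in WT 4, 5 and 6. Every direction below is therefore that of the deposited labels, and the genotype behind a label was not settled. Pancreas genes also set arrays apart. The mean log2 signal of 9 pancreas genes was 17.6 in Card9-/- 7 at day 0 against 5.07 to 6.17 in the other arrays. At day 7 it was 16.1 in Card9-/- 6 and 11.9 in Card9-/- 2.1, against 4.48 to 6.71 in the others. The share of spots well above background was 54.5% to 64.9% per array at day 0 and 42.2% to 57.1% at day 7, with 0 saturated spots.

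B cells carry an antigen receptor whose signal passes through CD79A and CD79B. In the gut they gather in isolated lymphoid follicles and colonic patches, where naive B cells also carry the complement receptor CR2 and the low-affinity IgE receptor FCER2A. B cells that become plasma cells lose much of this programme and turn to secretion. The J chain links IgA and IgM into polymers that the polymeric immunoglobulin receptor carries into the lumen, and MZB1 is a chaperone of the endoplasmic reticulum. In GF mice follicles and IgA plasma cells are known to be fewer or less mature than in colonised mice. In a bulk sample, fewer cells of a type and less RNA per cell cannot be told apart.

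The probe sequences are shown for the genes on which the results turn, because 4 probes of Pax5, a transcription factor that keeps B cell identity, gave different patterns. Coordinates are those of the scanner files (NCBI37), and the sequences are the deposited ones, written 5′ to 3′ with no letter marked. All 4 Pax5 probes lie on the minus strand of chromosome 4.
Pax5 A_66_P128859 (day 0, brightest, chr4:44692322-44692381): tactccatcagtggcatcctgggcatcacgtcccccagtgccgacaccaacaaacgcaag
Pax5 A_55_P2126394 (day 7, brightest, chr4:44658421-44658480): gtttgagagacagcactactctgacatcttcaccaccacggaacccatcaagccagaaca
Pax5 A_51_P122855 (day 7, spanning chr4:44550354-44582908): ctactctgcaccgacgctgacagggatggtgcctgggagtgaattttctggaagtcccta
Pax5 A_52_P429826 (day 0, first 30 bases, chr4:44537936-44537995): atgtaattacagcagtgccaatttgccaaa
Cd79b A_51_P342652 (both days, first 30 bases, chr11:106172780-106172839): agagacttgttggaatctgcaaatggactc
Jchain A_51_P150710 (both days, first 30 bases, chr5:88949919-88949978): ctgtactagtctttctcttaacctctcact
The 60 bases of A_51_P122855 span 32555 bases of the genome, so this probe crosses at least 1 intron. The probe A_52_P429826 lies 154386 bases downstream of A_66_P128859, at the far 3′ side of the 4.

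At day 0 the follicle B cell genes varied widely between arrays of the same label, and the medians of the labels lay close together. Cd79b, a signalling chain of the B cell receptor, ran from 7.35 through a median of 9.71 to 12.68 across the 7 arrays labelled GF Card9-/- and from 7.38 through 9.53 to 12.08 across the 6 labelled GF WT. The highest and lowest arrays stood 40.1-fold apart, and both labels covered nearly the same range. Ms4a1, which encodes CD20, ran from 5.35 through 8.29 to 11.47 and from 5.90 through 7.83 to 10.92. Cr2, the complement receptor, ran from 5.57 through 7.83 to 10.44 and from 5.43 through 7.51 to 10.33. These genes were highest in Card9-/- 6, WT 2 and WT 4, in that order for Cd79b, Ms4a1 and Cr2, so the high arrays came from both labels. Fcer2a ran from 3.65 through 6.07 to 9.32 and from 3.01 through 5.95 to 8.68, and was well above background on 6 of 7 and 5 of 6 arrays. Cd79a, the partner chain of CD79B, was dim with its probe of this design, at 3.87 through 4.93 to 7.34 and 4.31 through 4.80 to 6.49, and was well above background on 3 of 7 and 4 of 6 arrays. The same 3 arrays were the highest for 7 of the 9 members, all but Pax5 and Jchain. The brightest Pax5 probe kept within 5.35 to 6.20 and 5.47 to 6.45 and did not share this order.

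**Figure D1:**
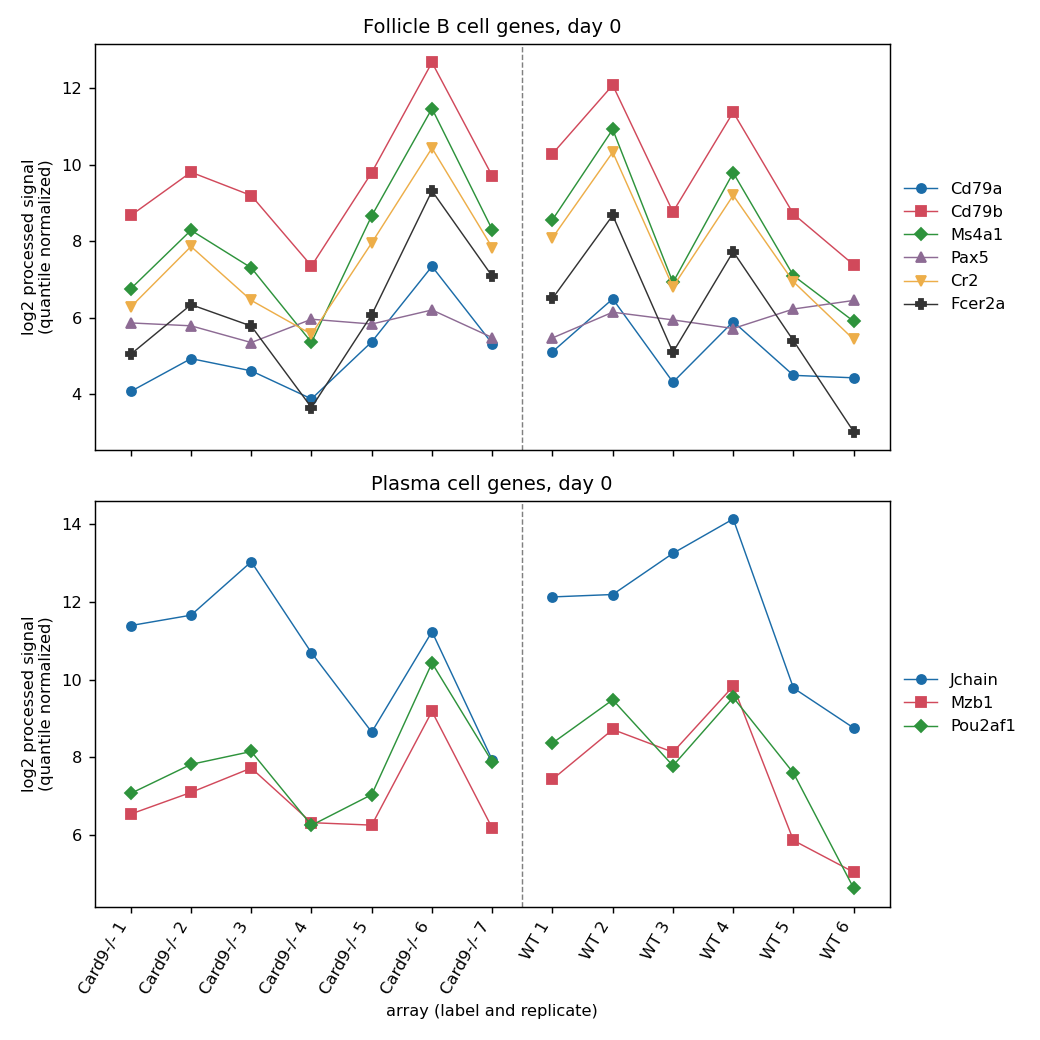
Log2 processed signal (y axis, quantile normalized) of the brightest probe of each gene on the 13 day 0 arrays (x axis), follicle B cell genes above and plasma cell genes below; the dashed line separates the labels, and lines only join the points of a gene. Cd79b reached 12.68 in Card9-/- 6 and 12.08 in WT 2 and fell to 7.35 in Card9-/- 4 and 7.38 in WT 6, while Jchain was highest, at 14.12, in WT 4.

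The plasma cell genes at day 0 varied as much. Jchain ran from 7.94 through 11.23 to 13.02 under the Card9-/- label and from 8.76 through 12.15 to 14.12 under the WT label. Its 3 highest arrays were WT 4, WT 3 and Card9-/- 3, and its 3 lowest were Card9-/- 7, Card9-/- 5 and WT 6, so its order was not that of Cd79b. Mzb1 ran from 6.19 through 6.55 to 9.18 and from 5.06 through 7.79 to 9.83, highest in WT 4, then in Card9-/- 6. Pou2af1, a coactivator of octamer-binding factors that B cells and plasma cells share, ran from 6.26 through 7.82 to 10.42 and from 4.64 through 8.08 to 9.54. It was highest in Card9-/- 6 and lowest in WT 6. Neither Mzb1 nor Pou2af1 was well above background in WT 6, so their lowest values give only a bound. All 3 genes overlapped between the labels. The 3 did not share 1 order. As a description over the 13 arrays, Pearson's r of Pou2af1 was 0.919 with Cd79b and 0.538 with Jchain, and that of Mzb1 was 0.795 with Cd79b and 0.793 with Jchain.

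None of the 9 members passed the test between the labels at day 0. The log2 differences (GF Card9-/- minus GF WT label) lay between -1.05 and 0.12, and adjusted p lay between 0.912 and 0.994 (limma, Benjamini-Hochberg over 47410 probes). The lowest unadjusted p among them was 0.246, for Pax5 (limma), while 2769 probes had one under 0.05. The same fit called 0.0253% of all probes tested, 12 in number, and the labels did not overlap for 0.458% of probes and for 0 of the 9 members. The intervals were wide. For Cd79b the difference was -0.17 (95% interval -2.11 to 1.78), for Ms4a1 -0.18 (-2.36 to 2.00), for Cr2 -0.31 (-2.25 to 1.62), for Fcer2a 0.12 (-2.04 to 2.27) and for Cd79a -0.047 (-1.25 to 1.15). For Jchain it was -1.05 (-3.23 to 1.13), for Mzb1 -0.46 (-2.12 to 1.20) and for Pou2af1 -0.093 (-1.88 to 1.69). The Cd79a probe was well above background on only 3 of 7 and 4 of 6 arrays, so its difference and interval rest partly on background readings. The narrowest interval was that of the flat Pax5 probe, -0.21 (-0.58 to 0.16). Without Card9-/- 7, the array with pancreas genes, the 9 differences lay between -0.60 and -0.035. The direction rested on single arrays: 6 of 9 differences were above 0 without WT 2 (up to 0.64), without WT 4 (up to 0.45) or without Card9-/- 4 (up to 0.54).

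The spread within a label put these genes among the most variable on the arrays. The pooled SD within the labels at day 0 was 1.70 for Cd79b, 1.91 for Ms4a1, 1.68 for Cr2, 1.88 for Fcer2a and 1.90 for Jchain, against a median of 0.29 over 47301 probes without a missing value. A larger SD was seen in 0.641% of those probes for Cd79b, 0.319% for Ms4a1 and 0.323% for Jchain, but in 45.3% for the brightest Pax5 probe. The label took up 0.282% of the variance of Cd79b, 0.261% of that of Ms4a1 and 8.19% of that of Jchain, where the median probe had 5.05%. The 4 slides took up 7.38% of the variance of Cd79b and 39.4% of that of Jchain, against 30.6% for the median probe. Within the first scan session, with 3 arrays per label, all 9 differences were below 0, from -1.07 to -0.34. Within the second, with 4 and 3 arrays, they ran from -1.55 to 0.74 with 6 above 0. On the slide that held Card9-/- 5, Card9-/- 6 and WT 6 the difference of Ms4a1 was 4.17, against -0.26, -1.22 and -2.30 on the other slides. Fcer2a was not well above background in WT 6 and gave only a bound. On the slide of Card9-/- 7 and WT 1 the difference of Jchain was -4.18, against 1.35, -2.64 and 1.18 on the other slides.

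At day 7 of DSS the arrays fell into a high and a low set for the B-lineage genes, each with arrays of both labels. Cd79b read 11.78, 8.11, 8.72 and 10.79 in Card9-/- 2, 2.1, 4 and 6, and 10.90, 8.02, 10.15 and 8.23 in WT 1, 4, 5 and 6. Thus 4 arrays lay at 8.02 to 8.72 and 4 at 10.15 to 11.78. Cd79a, measured at day 7 by a brighter probe of another position, read 10.29, 7.00, 7.44 and 9.02 in the same order under the Card9-/- label and 9.55, 6.73, 9.03 and 7.16 under the WT label. Card9-/- 2, Card9-/- 6, WT 1 and WT 5 were again its 4 highest.

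The other surface receptors of the B cell followed the same arrays. Ms4a1 read 10.60, 6.49, 7.15 and 9.66 under the Card9-/- label and 9.17, 6.59, 8.36 and 7.01 under the WT label. Cr2 read 10.54, 7.19, 7.52 and 9.62, and 9.45, 6.94, 8.65 and 7.40. The 2 high arrays of each label stood above the 2 low ones for both genes. Fcer2a read 7.66, 4.96, 5.10 and 6.79, and 6.41, 4.63, 5.78 and 5.09, and was not well above background in Card9-/- 2.1 and WT 4.

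Of the plasma cell genes at day 7, Mzb1 read 7.97, 4.24, 5.08 and 7.26 under the Card9-/- label and 7.02, 4.26, 7.07 and 4.44 under the WT label. Pou2af1 read 8.91, 4.89, 6.14 and 8.55, and 8.05, 5.38, 7.31 and 6.07. Both split the arrays as Cd79b did. Jchain read 11.28, 5.91, 9.93 and 10.40, and 10.45, 8.64, 12.62 and 6.60, with the highest value in WT 5 and the lowest in Card9-/- 2.1, which stood 104-fold apart. For 8 of the 9 members, all but Pax5, the 4 highest arrays were Card9-/- 2, Card9-/- 6, WT 1 and WT 5. Of the 2 arrays with high pancreas genes, Card9-/- 6 was in the high set and Card9-/- 2.1 in the low set.

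**Figure D2:**
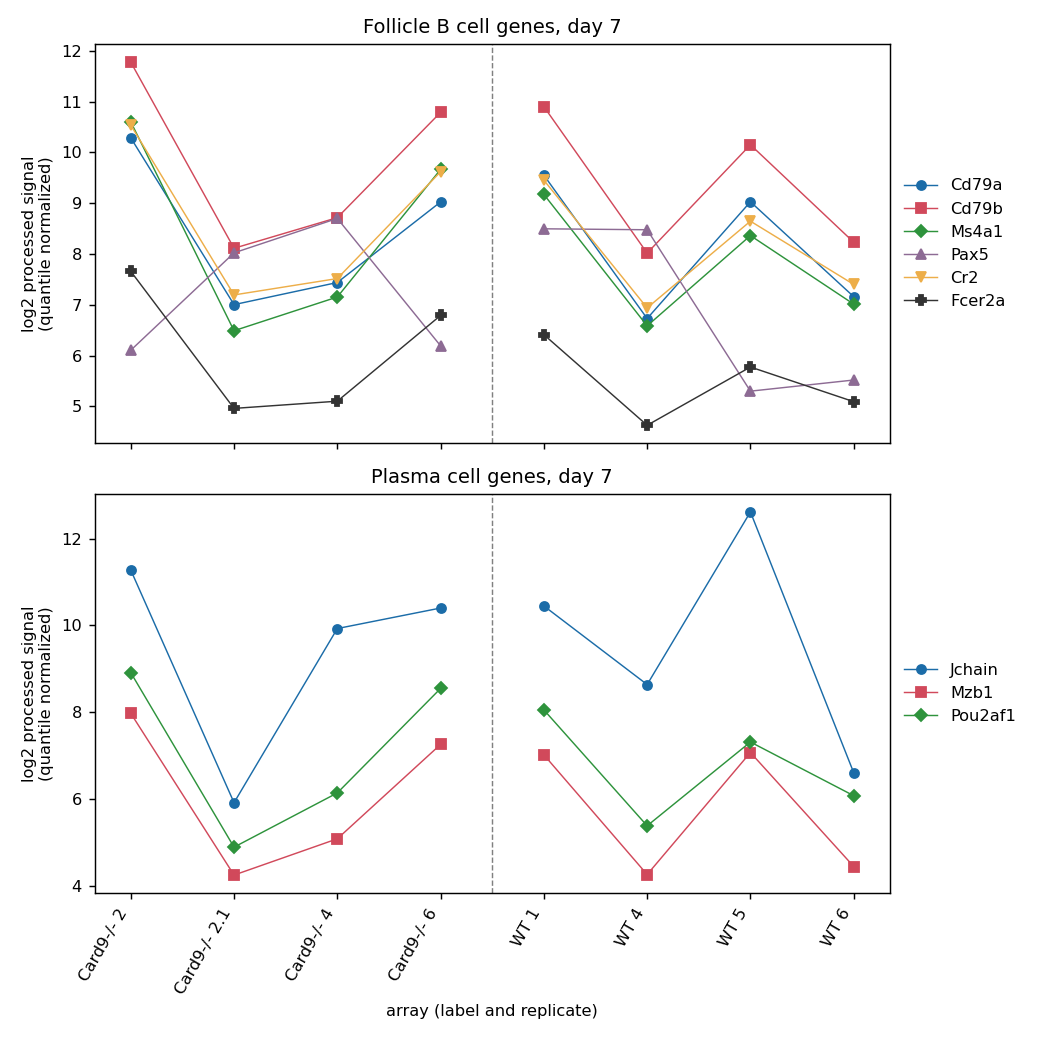
Log2 processed signal (y axis, quantile normalized within day 7) of the brightest probe of each gene on the 8 day 7 arrays (x axis), follicle B cell genes above and plasma cell genes below; the dashed line separates the labels, and lines only join the points of a gene. Card9-/- 2 and 6 and WT 1 and 5 are high for 8 genes, and the brightest Pax5 probe is instead high in Card9-/- 2.1 and 4 and WT 1 and 4.

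None of the 9 members passed the test at day 7 (adjusted p from 0.913 to 1, limma over 44643 probes). The differences lay between -0.20, for Jchain, and 0.69, for Ms4a1, and 8 of 9 were above 0. The same fit called 0% of all probes, with 1511 at an unadjusted p under 0.05 and none of the members among them, where the lowest unadjusted p was 0.377 (Fcer2a, limma). The labels did not overlap for 2.13% of probes and for 0 of the members. For Cd79b the difference was 0.52 (95% interval -1.83 to 2.88), for Cd79a 0.32 (-1.84 to 2.48), for Cr2 0.61 (-1.49 to 2.70), for Ms4a1 0.69 (-1.73 to 3.12) and for Fcer2a 0.65 (-0.97 to 2.27). For Mzb1 it was 0.44 (-2.04 to 2.92), for Pou2af1 0.42 (-1.98 to 2.82) and for Jchain -0.20 (-3.88 to 3.48). All 8 of these intervals reached past 2 on the log2 scale, so a 4-fold higher level lay within them. Without the 2 arrays with pancreas genes the 9 differences lay between 0.45 and 1.09, and without WT 1, the array whose Card9 signal was high, between 0.094 and 1.16. Without Card9-/- 2 they lay between -0.83 and 0.69 with 3 of 9 above 0, and without WT 4 5 of 9 were above 0.

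**Figure D3:**
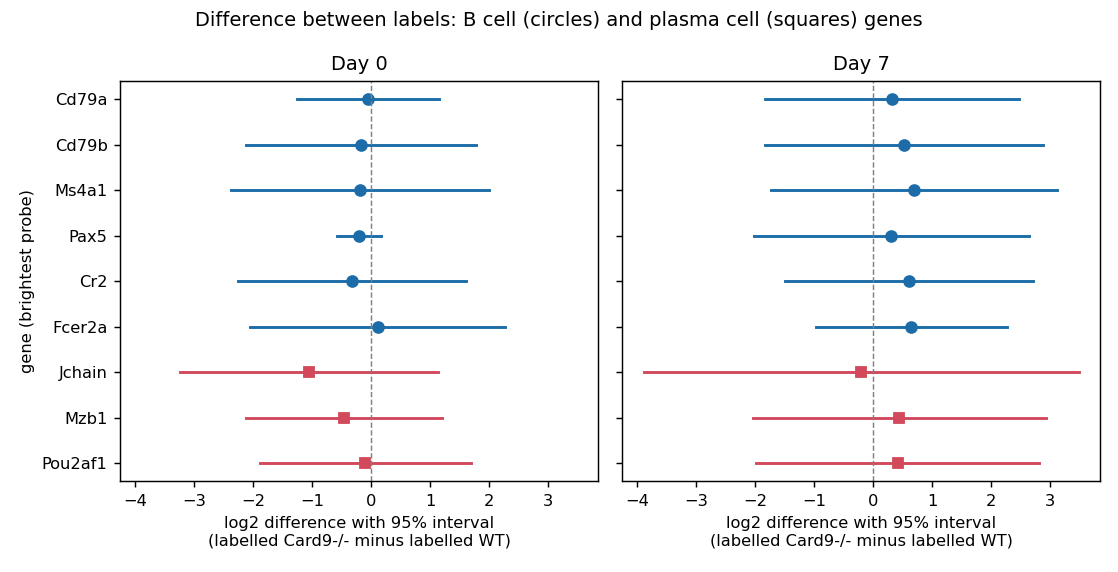
Log2 difference between the arrays labelled GF Card9-/- and GF WT (x axis, point) with its 95% interval (line, limma) for the brightest probe of each gene (y axis) at day 0 (13 arrays) and day 7 (8 arrays); circles are follicle B cell genes and squares plasma cell genes. All 18 intervals include 0, and that of Jchain at day 7 is the widest, from -3.88 to 3.48.

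The 2 slides of day 7 that held both labels gave different values. On the slide of Card9-/- 2 and WT 6 all 9 differences were above 0, up to 4.67 for Jchain, and on the slide of Card9-/- 2.1 and WT 4 the difference was -2.72 for Jchain, -0.45 for Pax5 and -0.096 for Ms4a1, and 0.27 for Cd79a, 0.26 for Cr2 and 0.095 for Cd79b. Pou2af1 was not well above background in Card9-/- 2.1. Fcer2a and Mzb1 were not well above background in either array of that slide and have no direction there. With 1 array per label on a slide these values carry no error. The pooled SD within the labels was 1.58 for Cd79b and 2.47 for Jchain, against a median of 0.41 over 44589 probes, and a larger SD was seen in 1.94% and 0.139% of the probes.

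The change of the difference from day 0 to day 7 was fitted for the 5 members that had a shared probe on both array designs. It was 0.69 (95% interval -2.29 to 3.67) for Cd79b, 0.92 (-1.94 to 3.78) for Cr2, 0.85 (-2.96 to 4.66) for Jchain and 0.90 (-1.85 to 3.65) for Mzb1. The shared Cd79a probe was well above background on 2 arrays under the Card9-/- label and 0 under the WT label at day 7, so no change is given for it. Adjusted p of the other 4 lay between 0.920 and 0.949 (limma, 23633 shared probes), and 0% of the shared probes were called, with 1688 at an unadjusted p under 0.05. Day and array design changed together, so levels of the 2 days were not compared.

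Pax5 depended on the probe. At day 0 the brightest probe, A_66_P128859, was well above background on all 13 arrays but spanned only 2.15-fold, while A_52_P429826 read 2.46 to 7.18. This dimmer probe was well above background on 4 arrays, Card9-/- 6 at 7.18, WT 2 at 6.59, WT 4 at 4.95 and WT 1 at 4.30, which were also the 4 highest for Cd79b. As a description over the 13 arrays, Pearson's r with the mean of Cd79b, Ms4a1, Cr2 and Fcer2a was 0.96 for A_52_P429826 and -0.075 for A_66_P128859. With so few arrays above background no difference between the labels is given for it.

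At day 7 the brightest Pax5 probe, A_55_P2126394, read 6.11, 8.02, 8.70 and 6.19 under the Card9-/- label and 8.50, 8.48, 5.30 and 5.52 under the WT label. Its high arrays were Card9-/- 2.1, Card9-/- 4, WT 1 and WT 4, of which only WT 1 was high for Cd79b. Its difference between the labels was 0.31 (95% interval -2.02 to 2.63). The 6 slides took up 98.1% of the variance of A_55_P2126394, against 86.3% for the median probe and 59.5% for Cd79b. Most of these slides held 1 array, which raises such shares. Card9-/- 2.1 and WT 4, both high for this probe, shared a slide, and so did Card9-/- 2 and WT 6, both low. The other probe, A_51_P122855, read 2.50 to 2.94 and was well above background on 0 of 8 arrays. The genes most like A_55_P2126394 over the 8 arrays were Taar7d, Prdm10, Prh1, Cnnm4 and LOC100040974 (Pearson's r from 0.987 to 0.998), none of them in the B cell lists. With this probe 94 of 15096 genes had r over 0.9, the same number as with Cd79b. At day 0 the genes most like A_66_P128859 were Cnot1 (r = 0.853) and Kcnn2 (r = 0.839), and 0 of 17518 genes reached r over 0.9. These Pax5 comparisons were chosen after the values were seen, and why the probes differ was not tested.

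**Figure D4:**
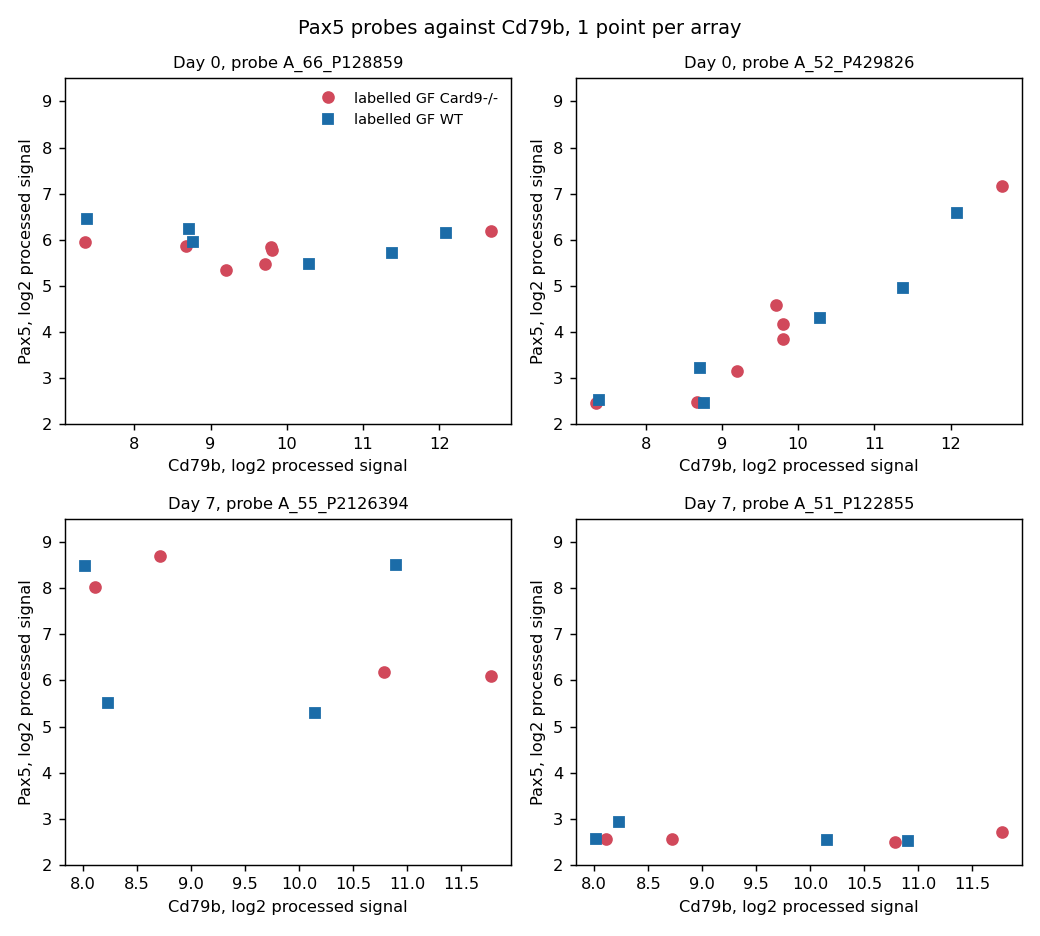
Log2 processed signal of 4 Pax5 probes (y axis) against that of Cd79b (x axis), 1 point per array, circles labelled GF Card9-/- and squares GF WT, day 0 above and day 7 below. At day 0 A_66_P128859 stays within 5.35 to 6.45 while A_52_P429826 goes from 2.46 to 7.18 along Cd79b; at day 7 A_55_P2126394 reads 5.30 to 8.70 with no common order and A_51_P122855 stays at 2.50 to 2.94.

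Second probes of Cr2 kept the order of the B cell genes better than those of Ms4a1 and Fcer2a. Each probe was set against the mean of Cd79b, Ms4a1, Cr2 and Fcer2a with its own gene left out, so these means differ between genes. At day 0 the 2 other Cr2 probes, well above background on 12 and 6 of 13 arrays, had r = 0.96 and r = 0.76. At day 7 the other Cr2 probe had r = 0.99. The other Ms4a1 probe at day 0 read only 4.11 to 6.31 and was well above background on 9 of 13 arrays (r = 0.60). The other Fcer2a probe was well above background on 1 of 13 arrays (r = 0.13), and the other Cd79a probe at day 7 on 2 of 8 (r = 0.69). None of the 8 other probes passed the test (adjusted p from 0.879 to 0.999, limma).

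Jchain lay closer to Igha and Igkc than to the follicle genes at day 0. Igha, the constant region of IgA, ran from 11.61 through 15.25 to 16.84 under the Card9-/- label and from 13.04 through 16.09 to 17.84 under the WT label. Its highest array was WT 4 and its lowest Card9-/- 7, as for Jchain. Over the 13 arrays r between Jchain and Igha was 0.987, and 0.981 without the 2 arrays farthest from the Jchain median, while r between Jchain and Cd79b was 0.347. Card9-/- 6, highest for Cd79b, was only eighth from the highest for Jchain, and Card9-/- 5 and 7 were low for Jchain at 8.65 and 7.94 with Cd79b near its median at 9.80 and 9.71. The 10 genes most like Jchain held Igkc (r = 0.984), the light chain constant region, and the variable gene record Igh-VJ558 (r = 0.982), but also Kmt2e (r = 0.935) and Akap9 (r = 0.912), which are not immunoglobulin genes. Ighd, the IgD constant region, had r = 0.992 with the mean of the follicle genes. At day 7 Igha read 15.27, 9.83, 14.32 and 13.38 under the Card9-/- label and 14.68, 12.96, 16.66 and 10.40 under the WT label, again highest in WT 5 and lowest in Card9-/- 2.1. There r of Jchain over 8 arrays was 0.982 with Igha and 0.761 with Cd79b, so the 2 were less far apart than at day 0. Igha did not pass the test at day 0 (-1.10, 95% interval -3.36 to 1.17, adjusted p = 0.912, limma) or at day 7 (-0.47, -4.22 to 3.28, adjusted p = 0.985, limma).

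**Figure D5:**
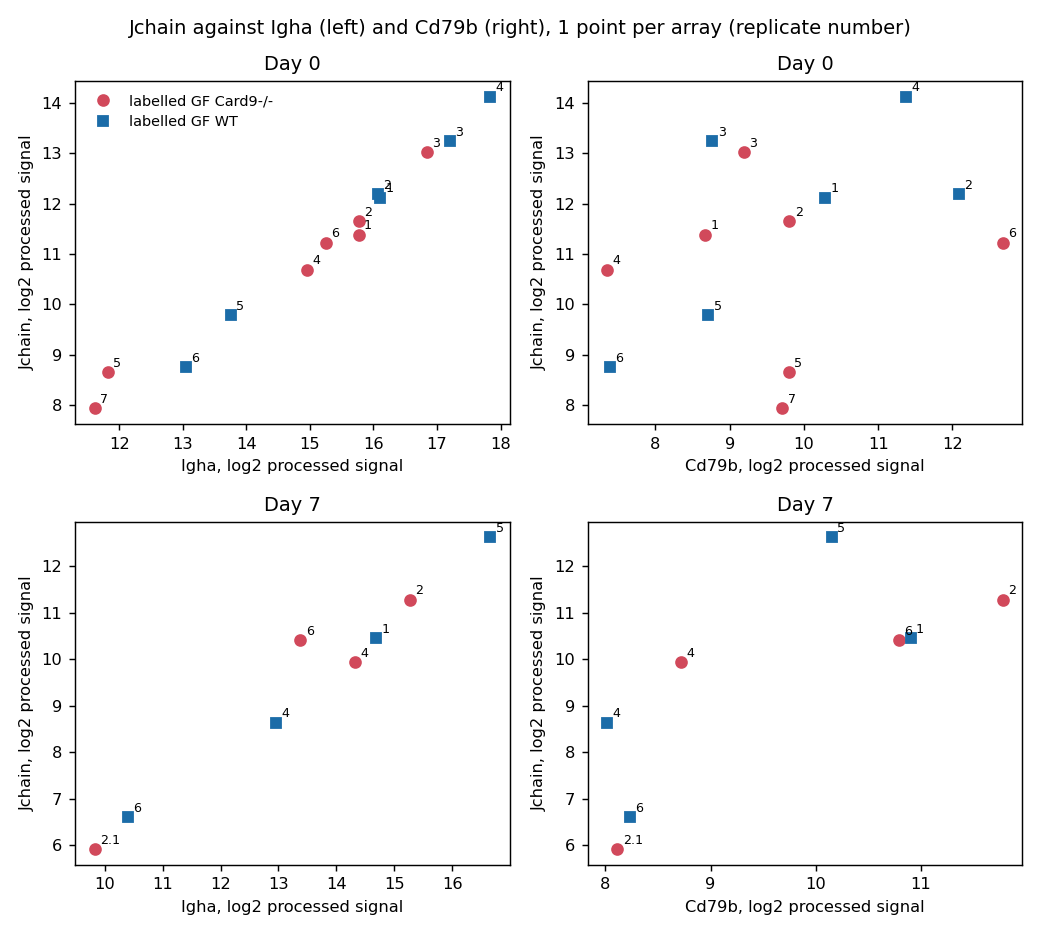
Log2 processed signal of Jchain (y axis) against Igha (left) and Cd79b (right), 1 point per array with its replicate number, circles labelled GF Card9-/- and squares GF WT, day 0 above and day 7 below. At day 0 Jchain lies along Igha (r = 0.987 over 13 arrays) and is scattered against Cd79b (r = 0.347). At day 7 r over 8 arrays is 0.982 with Igha and 0.761 with Cd79b.

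The genes whose pattern was most like the mean of the follicle B cell members were named by Pearson's r, as a description. At day 0, among 17518 named genes well above background on most arrays, these included Ighd (r = 0.992), Vpreb3, Fcmr, H2-Ob, Map4k1, Bfsp2, Ly6d, Tnfrsf13c and Bank1 (r = 0.974), and without Card9-/- 6 and WT 2 their r stayed between 0.954 and 0.987. Ighd is the IgD constant region of naive B cells. At day 7 they were H2-Oa (r = 0.992), Ptprcap, Map4k1, Hvcn1, Ly6d, Tbc1d10c, Cxcr5, Ltb, Cd52 and Fcrla (r = 0.973). With the arrays in 2 separate sets, an r over 8 arrays says mostly that a gene split them in the same way. Map4k1 and Ly6d were in both lists.

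For the mean of the plasma cell members, which joins these different orders, at day 0 the most like were Cacna1s (r = 0.960), D930015E06Rik, Igkc, Gm32819, Ptpn7, Gm8995, Trim11, Slamf7, Madcam1 and Iglc3 (r = 0.886). At day 7 they were Clu (r = 0.989), Dock10, Btla, Dennd1c, Dok3, Dennd4b, Apbb1ip, Acap1, Gimap6 and Cd37 (r = 0.966). All arrays of a day shared their normalization. Every day 0 array shared its slide with others, but at day 7 only Card9-/- 2 with WT 6 and Card9-/- 2.1 with WT 4 did.

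No other gene of the lineage passed the test between the labels (limma). At an unadjusted p under 0.05 lay 0 of 18 further B cell genes at day 0 and 1 at day 7, 1 germinal centre gene at each day, 2 further plasma cell genes at day 0 and 0 at day 7, 0 immunoglobulin constant genes at either day, 1 follicle organiser or survival gene at each day, and 0 genes of IgA transport. Of 18 further B cell genes tested at day 0, 0 were called higher and 0 lower, with a median difference of -0.12, and at day 7 again 0 and 0 of 18, with a median of 0.36. Over all named genes the median difference was 0.010 at day 0 and -0.0011 at day 7. No gene was called among 7 germinal centre genes at day 0 (median -0.15) and 8 at day 7 (0.24). The mean of the germinal centre list spanned 0.38 over the arrays of day 0, against 4.28 for the follicle B cell members.

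Of further plasma cell genes, 14 at day 0 (median 0.088) and 13 at day 7 (median 0.17), none was called. Xbp1 and Sdc1, which the epithelium also uses, varied little: Xbp1 read 15.18 to 15.45 and Sdc1 12.12 to 12.83 over the day 0 arrays. Prdm1, which drives plasma cell fate, read 5.92 to 7.60 at day 0 and 7.06 to 7.95 at day 7. Tnfrsf17, the survival receptor of plasma cells, was well above background on 5 of 13 arrays and read up to 5.24 under the Card9-/- label and 6.77 under the WT label. Of immunoglobulin constant genes, 11 were tested at day 0 (median -0.76) and 7 at day 7 (median 0.97), and none was called. These medians are over different genes, and Ighm and Igkc were read by different probes at the 2 days, so the days are not compared. At day 0 and day 7 Ighm was at -0.76 (95% interval -2.48 to 0.96) and 1.12 (-1.53 to 3.78) and Igkc at -0.81 (-2.63 to 1.01) and -0.19 (-3.80 to 3.43). Constant genes of the heavy and light chains are similar within a class, and signal shared between them cannot be told apart.

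Follicle organisers and B cell survival factors also gave 0 calls, among 11 genes at day 0 (median -0.16) and 9 at day 7 (median 0.16). Ltb, the lymphotoxin chain needed to form follicles, read 8.88 through 9.87 to 12.75 and 9.07 through 10.16 to 12.14 at day 0. It was highest in Card9-/- 6, like Cd79b. Cxcl13, the chemokine that draws B cells into follicles, spanned 2.78 on the log2 scale at day 0 and was highest in WT 2. Tnfsf13b, which encodes the survival factor BAFF, spanned only 0.67 at day 0, where its difference was -0.27 (limma 95% interval -0.46 to -0.09, adjusted p = 0.541, limma), and differed by -0.34 (-0.88 to 0.20) at day 7. Among 7 genes of IgA transport and homing at each day no gene was called (medians -0.072 and 0.29). Pigr, the receptor that carries polymeric IgA through the epithelium, read 16.46 to 17.67 at day 0 and 16.28 to 17.42 at day 7.

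Among markers of other cells, the mean of 10 T cell genes was highest in Card9-/- 6, like Cd79b, at day 0, at 10.3 against 8.08 to 9.14 in the other arrays, and Lck, a kinase of the T cell receptor, read 9.71 to 11.57. Cd3e, a chain of that receptor, read 9.52 to 10.87. At day 7 the T cell mean was highest in Card9-/- 6, at 8.34, and ranged from 6.90 to 8.34. The mean of 6 smooth muscle genes spanned 3.52 at day 0 and was highest in Card9-/- 1, and that of 7 adipocyte genes spanned 7.73 and was highest in Card9-/- 6 and lowest in Card9-/- 5. The mean of 8 colonocyte genes stayed between 14.7 and 15.7. The lists of other cell types gave no called gene at either day (limma), with 1 mesothelium gene at day 0 and 2 T cell and 2 pancreas genes at day 7 at an unadjusted p under 0.05. Their median differences at day 0 and day 7 were 0.18 and 0.73 for T cells, -0.54 and 0.060 for macrophages, 0.077 and 0.28 for colonocytes, -0.45 and -0.45 for smooth muscle, -0.20 and 1.45 for adipocytes, 1.93 and 5.34 for pancreas and 0.91 and 0.39 for mesothelium. The part of the other cell types in the values of the members was not tested.

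Promoters were searched for the octamer ATGCAAAT, which POU2AF1's partner factors bind, on both strands of the RefSeq windows from 250 bases before to 50 after each start (GRCm38.p6). Windows were matched for 6 of the 9 members, Cd79a, Pax5, Cr2, Fcer2a, Jchain and Pou2af1, and Cd79b, Ms4a1 and Mzb1 were not matched. None of their 8 windows held it, against 1.74% of all 32851 windows.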

How the data were processed

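The scanner files gave, per the file headers, spot intensity from Agilent Feature Extraction 10.7.3.1 (background-subtracted processed signal, mean signal, local background) and a detection p-value per spot. The authors also deposited a table of log2 values of the same arrays, used here as an alternative, whose scale was read from the range and rank order of its values and is not stated in the labels. According to the methods, the authors filtered on detection, quantile normalized and used limma.

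Here log2 processed signals were quantile normalized within each day. Control and outlier spots were dropped and spots averaged per probe. A probe was fitted where 60% or more of the arrays of either label detected it (p under 0.05), with limma 3.58.1 in R 4.3.3, as GF Card9-/- minus GF WT label, with Benjamini-Hochberg adjustment at 0.05. The fit was tested on simulated data. The number of arrays limits the precision. A total of 217 probes at day 0 and 949 at day 7 had labels that did not overlap.

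The members, gene lists and likeness rule were chosen with earlier results of these data known. Named by rule were the members, Card9, a set of lineage genes, any called gene of a list, and the 10 genes most like the follicle and plasma means. Symbols came from RefSeq accessions, then from the files. Tnfsf13 was not analysed here. Some genes that the rule names are not reported here. The day 0 median processed signal per array was 48.6 to 104 and that of day 7 was 27.3 to 33.6. The day 7 arrays came from 6 slides and 1 scan session, those of day 0 from 4 slides and 2 sessions.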

Additional observations from a re-analysis of the deposited data

Results flagged for a closer look

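At day 0, Cd79a in the arrays labelled GF Card9-/- had 1 array far from the others: Card9-/- 6 read 7.34, and the next highest array read 5.37, a gap of 0.57 of the range of that group. That next array, Card9-/- 5, and the lowest, Card9-/- 4 at 3.87, were not well above background. The size of the gap therefore rests on background readings. Of the 36 groups of members and labels examined, 1 stood out in this way, and chance gives about 1 in 20. Card9-/- 6 was also the highest for Cd79b, Ms4a1, Cr2 and Fcer2a, where the gap to the next array was a smaller part of the range.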

How the results depend on the processing

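The count of members called was 0 at both days under every alternative run, leaving out each array included; the lowest adjusted p of any member's brightest probe was 0.694 at day 0 and 0.832 at day 7 (limma). Over all probes, the 12 calls of day 0 became 27 with normexp background correction, 22 from the deposited table, 22 with the well above background filter and 7 with the replicate block, and 8 to 16 when an array was left out. The 0 calls of day 7 became 1 without WT 1, with a range of 0 to 1, and the 0 calls of the change between days became 2 without WT 5 of day 7 and 2 without WT 6 of day 7, with a range of 0 to 2. The cause of these moves was not tested.

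Differences near 0 changed sign without passing any threshold. At day 0 Cd79a became 0.039 with normexp and 0.020 in the deposited table, and Fcer2a became -0.0097 with normexp, -0.14 with dim values raised to the floor, -0.035 with the replicate block and -0.82 by its other probe. At day 7 Jchain became 2.54 with the replicate block, 0.064 with arrays 2 and 2.1 averaged and 1.03 without the 2 arrays with pancreas genes (chosen after seeing the data), and Pax5 became -0.061 by its other probe. Both of these other probes have no direction: that of Fcer2a was well above background on 1 of 13 arrays and that of Pax5 on 0 of 8. Leaving out 1 array, the day 0 differences ran from -0.43 to 0.23 for Cd79a, -0.68 to 0.30 for Cd79b, -0.76 to 0.37 for Ms4a1, -0.31 to -0.12 for Pax5, -0.81 to 0.19 for Cr2, -0.50 to 0.64 for Fcer2a, -1.64 to -0.56 for Jchain, -0.95 to 0.0047 for Mzb1 and -0.75 to 0.23 for Pou2af1. At day 7 they ran from -0.29 to 0.80 for Cd79a, -0.12 to 1.10 for Cd79b (at most 1.05 with Card9-/- 2.1 kept), -0.014 to 1.36 for Ms4a1, -0.24 to 0.82 for Pax5, 8.4e-05 to 1.11 for Cr2, 0.14 to 1.04 for Fcer2a, -1.19 to 0.96 for Jchain, -0.17 to 1.07 for Mzb1 (at most 0.90 with it kept) and -0.18 to 1.16 for Pou2af1 (at most 0.87 with it kept).

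Arrays with equal replicate numbers were at most weakly alike: at day 0 the correlation of their deviations ran from -0.02 to 0.38 over 6 pairs, and at day 7 it was 0.11 and 0.03. The WT array most like Card9-/- 1 and Card9-/- 5 at day 0 and Card9-/- 4 at day 7 had the same number. For the other pairs it had another number, and whether the numbers mark paired mice was not settled. With the replicate block 0 probes were called at day 7 (limma, 2575 at an unadjusted p under 0.05), and the 9 differences, which rest there on numbers 4 and 6 only, lay between 0.45 and 2.54, with 1.29 for Cd79a, 1.63 for Cd79b, 1.61 for Ms4a1, 1.40 for Cr2, 1.09 for Fcer2a, 1.82 for Mzb1 and 1.62 for Pou2af1 (unadjusted p from 0.0591 to 0.139, adjusted p = 0.832, limma). Signal near background limits Cd79a and the dimmer Pax5 probe at day 0, and Fcer2a, Mzb1 and Pou2af1 in their low arrays.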
